A study of Mus musculus with 4 samples.

Results

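The 7 genes of the extracellular matrix and its surroundings described here, Dcn, Lum, Bgn, Vcan, Sparc, Sbspon and Apoe, were followed through the epithelium of the mouse prostate. They were chosen by name, 7 of the 31053 genes in the UMI tables, and their values were read in epithelial cells and in the few collagen-producing cells that came through the same sort. Prostate lobes of adult P2-Runx1:RFP mice (ICR strain, over 8 weeks old), in which the P2 promoter of Runx1 drives a red fluorescent reporter, were separated into AP (anterior), DLP (dorsal with lateral) and VP (ventral) tissue, pooled across mice, and sorted as EPCAM+ RFP+ or EPCAM+ RFP- cells. Intact mice were profiled in 3 runs, and mice castrated for over 4 weeks were profiled lobe by lobe in run 2. Run 1 held 17 Epcam-positive castrated cells, from pooled lobes. The explant library held EPCAM+ cells of ICR urogenital sinuses taken at E15.5 and cultured with 10 µM dihydrotestosterone, with 1 pool of explants at each of days 0, 1, 3 and 6.

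Decorin (Dcn), lumican (Lum) and biglycan (Bgn) are small leucine-rich proteoglycans that sit on collagen fibrils and bind growth factors. Versican (Vcan) is a large proteoglycan that binds hyaluronan and is known from developing mesenchyme. Sparc and Sbspon are secreted proteins of the matricellular kind, which regulate how cells meet the matrix rather than building it, and Sbspon carries a thrombospondin type 1 repeat. Apoe carries lipids, is a well-known product of macrophages, and binds heparan sulfate. In most organs the fibrillar matrix genes are taken as fibroblast markers, while basal cells of the prostate lie on the basement membrane between the luminal cells and the stroma.

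In GRCm38 (GENCODE vM21) Dcn lies on chromosome 10 from 97479609 to 97518143 and Lum follows it on the same strand from 97565128 to 97572703, 46985 bases farther on. Apoe lies on chromosome 7 (19696109 to 19699188), Sparc on chromosome 11 (55394500 to 55423183), Vcan on chromosome 13 (89655312 to 89742509), Bgn on chromosome X (73483602 to 73495933) and Sbspon on chromosome 1 (15853862 to 15892722). Because androgen withdrawal and Runx1 are the axes of the study, the 250 bases before the start site were searched in the RefSeq promoter table (GRCm38.p6), in which 4 of the 7 genes were matched. The letters of the androgen receptor half-site (TGTTCT, or AGAACA on the other strand) were in 16.1% of all 32851 windows of this length, and the RUNX core (TGTGGT, or ACCACA) in 14.0%. The half-site letters stood before Apoe, Sparc and Bgn, whose windows are shown with those letters in capitals, and neither motif stood before Vcan. The RUNX letters were in none of the windows of these 4 genes. A match of 6 letters is a description of the sequence and not a bound site. The windows are Apoe chr7:19699189-19699438 (minus strand, 1 match, 226 bases before the start), Sparc chr11:55420081-55420330 (minus strand, 2 matches, 78 and 14 bases before the RefSeq start) and Bgn chrX:73483351-73483600 (plus strand, 1 match, 241 bases before the start). Apoe has 2 further start sites in the table, and no match stood before those.
Apoe: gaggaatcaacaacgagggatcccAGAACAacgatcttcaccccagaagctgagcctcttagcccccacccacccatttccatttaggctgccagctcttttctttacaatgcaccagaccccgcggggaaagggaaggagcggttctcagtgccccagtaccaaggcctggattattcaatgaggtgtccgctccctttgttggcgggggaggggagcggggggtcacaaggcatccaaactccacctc
Sparc: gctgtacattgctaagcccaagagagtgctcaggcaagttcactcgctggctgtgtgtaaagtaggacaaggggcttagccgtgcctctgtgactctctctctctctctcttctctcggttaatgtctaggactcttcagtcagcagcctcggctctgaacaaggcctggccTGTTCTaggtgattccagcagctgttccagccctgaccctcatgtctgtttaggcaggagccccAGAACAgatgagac
Bgn: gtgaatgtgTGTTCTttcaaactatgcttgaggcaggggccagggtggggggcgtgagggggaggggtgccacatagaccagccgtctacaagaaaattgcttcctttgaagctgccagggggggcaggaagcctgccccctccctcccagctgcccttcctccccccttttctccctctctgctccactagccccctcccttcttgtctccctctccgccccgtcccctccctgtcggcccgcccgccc

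Epcam-positive cells were those with at least 1 Epcam UMI and fewer than 20 Col1a1 plus Col3a1 UMIs per 10000, and collagen-high cells had 20 or more. Within the epithelium, basal-gated cells had at least 10 Krt5 plus Krt14 UMIs per 10000, and luminal-gated cells had under 3 of these with at least 3 Krt8 plus Krt18. No gate uses any of the 7 genes. The intact runs held 263, 317 and 925 basal-gated, 354, 545 and 522 luminal-gated and 8, 10 and 4 collagen-high cells. Only 174 of 3959 adult Epcam-positive cells lay near the basal cut (8 to 12 per 10000) and 55 near the luminal cut (2 to 4). The libraries held between 35051876 and 121090404 UMIs, and at most 6 cell barcodes were shared by 2 libraries. Levels are given as CPM, the UMIs of a gene over all UMIs of the summed class on the CPM scale.

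Basal-gated cells, although epithelial, carried Dcn, Apoe, Sparc and Vcan at levels far above those of luminal-gated cells. Decorin stood at 3523, 3587 and 3857 CPM in the basal-gated cells of runs 1, 2 and 3, against 36.4, 25.6 and 64.4 CPM in luminal-gated cells. Apoe stood at 10300.3, 9294 and 8890.3 CPM against 102, 61.8 and 153 CPM. The runs of the 2 compartments lay far apart for both genes, and the basal values varied little, with 3656 ± 177 CPM for Dcn and 9495 ± 726 CPM for Apoe (SD, n = 3). In edgeR's quasi-likelihood test Dcn was higher by a log2 fold change of 5.82 (SE 0.50, adjusted p = 0.000165) and Apoe by 5.88 (SE 0.47, adjusted p = 0.000134). Nearly every basal-gated cell was positive, since 99.2%, 98.4% and 99.2% of them had a Dcn UMI and 100%, 99.7% and 100% an Apoe UMI.

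Sparc, which binds collagen and calcium, was at 499.6, 316 and 253 CPM in basal-gated and 4.91, 2.01 and 1.91 CPM in luminal-gated cells (log2 fold change 6.42, SE 0.31, adjusted p = 4.86e-05). It was found in 83.3%, 83.9% and 78.2% of the basal-gated cells, so its RNA was spread over most of the compartment. Vcan was a minor transcript, at 15.9, 40.8 and 22.3 CPM in basal-gated cells and at most 0.279 CPM in luminal-gated cells (log2 fold change 6.41, SE 0.59, adjusted p = 0.00021). Only 17.5%, 26.5% and 16.4% of basal-gated cells had a Vcan UMI. Across all genes, 5194 of 11807 passed the test, 44.0%, with 22.3% higher and 21.7% lower in basal-gated cells. Of the 6 genes tested here 5 were among the higher ones, and the runs did not overlap for Vcan, Dcn, Sparc and Apoe, as for 53.5% of all genes.

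Biglycan and lumican behaved differently from decorin. Bgn varied widely between the runs in basal-gated cells, with 54.3 CPM in run 1, 12.1 CPM in run 2 and 0.853 CPM in run 3, while luminal-gated cells had 1.2, 0.615 and 0.068 CPM. Its call as higher (log2 fold change 4.56, SE 1.30, adjusted p = 0.0237) was lost without run 1 (adjusted p = 0.0785) and without run 2 (adjusted p = 0.131), and the 2 compartments overlapped. The summed level of 10 fibroblast markers in basal-gated cells had the same order of runs, over a narrower range. It was 169, 65.0 and 43.5 CPM in runs 1, 2 and 3, with 10, 10 and 9 of the markers detected. Col1a1 and Col3a1, which the Epcam-positive gate caps, are among the 10. The part of these markers in the Bgn value was not tested. Lum was at 4.58, 1.01 and 0 CPM in basal-gated cells, where all 21 UMIs of run 1 came from 1 cell, and it was too low to be tested.

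Sbspon did not pass the test between basal-gated and luminal-gated cells. It was at 245, 172 and 172 CPM in basal-gated cells, found in 86.3%, 76.3% and 73.1% of them, and at 217, 30.4 and 66.7 CPM in luminal-gated cells. The groups overlapped in run 1, and the log2 fold change of 0.50 (SE 0.49) did not pass the test (adjusted p = 0.445). In cells under 7500 UMIs the sign turned, to a log2 fold change of -0.87 (adjusted p = 0.0371).

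**Figure D1:**
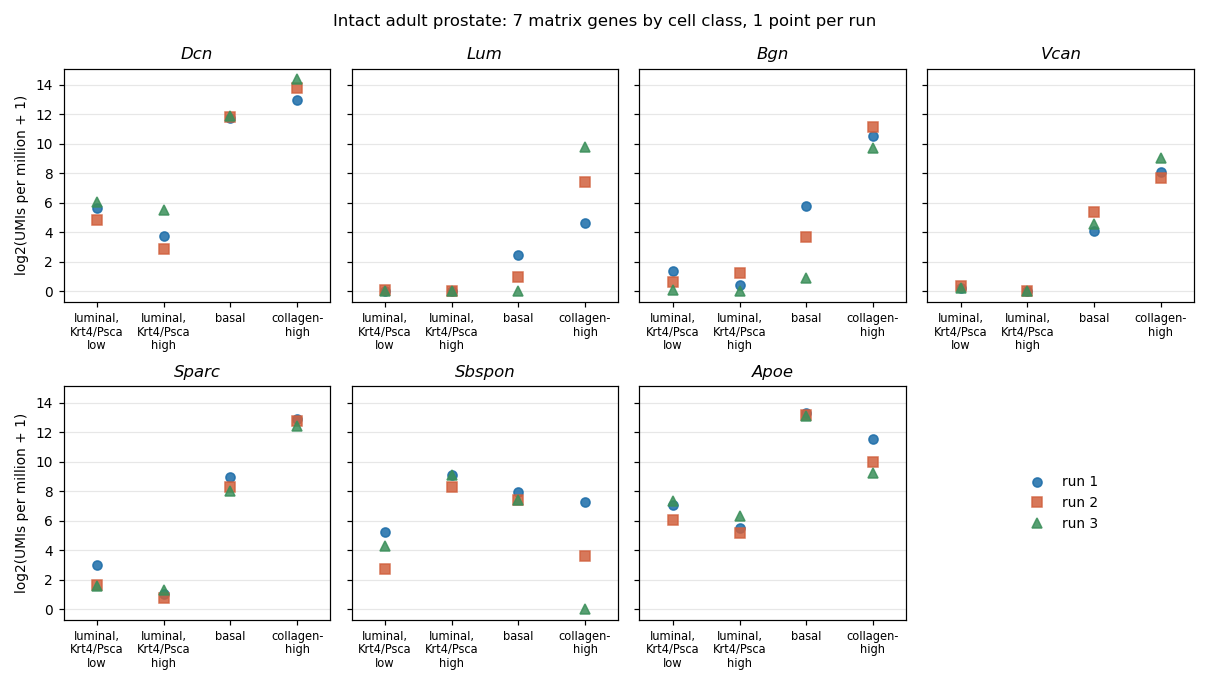
Level of the 7 genes in intact adult cells, on a log2(CPM + 1) scale, for Krt4/Psca-low and Krt4/Psca-high luminal-gated, basal-gated and collagen-high cells, with 1 point for each of the 3 runs. Dcn, Vcan, Sparc and Apoe step up from luminal to basal cells, Lum and Bgn are highest in collagen-high cells, and Sbspon is at 319 to 557 CPM in Krt4/Psca-high luminal cells.

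Since the basal gate is a cut on keratin, the levels were also followed over the keratin scale. In run 3, Dcn went from 37.3 CPM in cells with 0 to 1 Krt5 plus Krt14 UMIs per 10000 to 1163 CPM at 1 to 3, 3217 CPM at 3 to 10 and 3798 CPM at 10 to 30, and lay at 3834 and 4136 CPM in the next bins, up to 100. Apoe in run 3 went from 67.5 to 3421, 8466 and 8949 CPM over the same steps. In run 2 Dcn went from 18.8 to 532, 1658 and 3325 CPM and Apoe from 34.7 to 2104, 5420.2 and 9499.7 CPM. In run 1 Apoe went on above 10 UMIs per 10000, from 8437 to 10924 and 16349.5 CPM. Sbspon differed between runs, at 164 to 296 CPM over all these bins in run 1, while in runs 2 and 3 it was lowest in the bin from 0 to 1, at 28.7 and 64.2 CPM, against 157 and 167 CPM at 10 to 30. Dcn and Apoe were present in every run in cells with 1 to 3 basal keratin UMIs per 10000, Dcn at 1181, 532 and 1163 CPM and Apoe at 5115, 2104 and 3421 CPM. These bins held only 9, 14 and 37 cells in runs 1, 2 and 3, and no doublet caller was run here. Over single basal-gated cells the Spearman correlation of Dcn with Apoe was 0.47, 0.43 and 0.17 in runs 1, 2 and 3, and that of Dcn with Sbspon was between 0.00 and 0.02, as descriptions over 263, 317 and 925 cells that share a library and differ in depth.

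**Figure D2:**
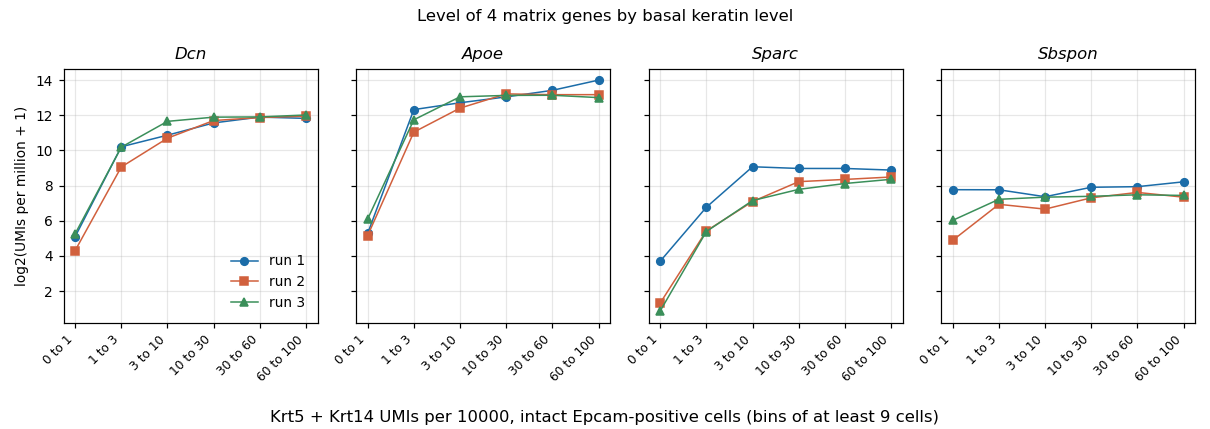
Level of Dcn, Apoe, Sparc and Sbspon on a log2(CPM + 1) scale in bins of Krt5 plus Krt14 UMIs per 10000, for intact Epcam-positive cells of each run, in bins of at least 9 cells. Dcn and Apoe climb over the bins below 10 in each run, Sparc in runs 2 and 3 and Apoe in run 1 go on climbing from 10 up to 100, and Sbspon lies between 28.7 and 296 CPM in the bins up to 100.

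In droplet data free RNA from other cells gives some UMIs everywhere, so the low luminal values were set beside T and NK cells, which should lack these genes. The 32 such cells of run 2 (median 2825 UMIs) had no Dcn UMI, which allows a level of up to 21.1 CPM, and 28.1 CPM of Apoe with 12.5% of cells positive. Luminal-gated cells of run 2 (median 26410 UMIs) had 25.6 CPM of Dcn in 26.6% of cells and 61.8 CPM of Apoe in 40.9%. Thinned to 3000 UMIs per cell, these shares were 5.41% for Dcn and 8.29% for Apoe, the latter below the 14.6% of the 13 T and NK cells deep enough to be thinned. Basal-gated cells had 98.0% for Dcn and 99.7% for Apoe after the same thinning. The Dcn and Apoe levels of basal-gated cells lay far above those of T and NK cells. In run 2 the luminal level of Apoe, 61.8 CPM, lay within the exact 95% interval of the T and NK cells, 7.65 to 71.9 CPM. That of Dcn, 25.6 CPM, lay above their limit of 21.1 CPM. In the intact run 2 cells of the keratin bin from 0 to 1, Dcn was at 18.8 CPM, below that limit. The other runs held too few such cells for this comparison, and the 2 of run 3 carried 224 Dcn UMIs. Myeloid cells, a known Apoe source, had 6302 and 2370 CPM of Apoe in runs 1 and 2.

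In the wider lists of matrix genes 41 of 61 tested genes were higher in basal-gated cells, 1 was lower and 19 did not pass, against 22.3% higher and 21.7% lower over all genes. All 5 small leucine-rich proteoglycans tested were higher in basal-gated cells, among them Fmod, a fibril-binding relative of Lum (log2 fold change 6.07, SE 0.49, adjusted p = 0.000138), and Prelp, which links basement membrane and collagen (5.96, SE 0.38, adjusted p = 6.25e-05). Of 13 cell-surface and basement membrane proteoglycans 11 were higher and none lower. Spon2, a secreted matrix protein, had the largest difference of the lists (6.66, SE 0.52, adjusted p = 0.000121). Clu, a secreted chaperone also called apolipoprotein J, was the only gene of the lists that was lower in basal-gated cells, at a mean of 66.7 against 847 CPM (log2 fold change -4.15, SE 0.42, adjusted p = 0.000295). Of 20 genes of glycosaminoglycan synthesis 10 were higher and the others did not pass.

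Against the collagen-high cells, the 7 genes divided by direction. Lum, Bgn, Vcan, Dcn and Sparc were higher in the collagen-high than in the basal-gated cells in every run. Lum was at 23.5 (on 2 UMIs), 171 and 902 CPM there, Bgn at 1491, 2294 and 835 CPM, and Vcan at 270.0, 205 and 534 CPM. Dcn was at 7937, 14062 and 21373 CPM and Sparc at 7467, 6962 and 5377 CPM. Vcan, Dcn and Sparc were present in both classes in every run. Apoe, at 3041, 1027 and 601 CPM, and Sbspon, at 153, 11.4 and 0 CPM, were below their basal-gated levels in every run. The 10 fibroblast markers summed to 6481, 9702 and 6946 CPM in these cells and all 10 were detected in each run. Col1a1 and Col3a1, the genes of the gate, are among the 10, so part of these sums was set by the gate. In run 1 the collagen-high cells also held 2501 CPM of basal and 1656 CPM of smooth muscle markers, against 134 and 234 CPM in run 3, and the part of these markers in the run 1 values was not tested.

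Only run 2 reached the planned minimum of 10 collagen-high cells, so the planned test set 1 sum against 3 and assumes that the single sum varies as the epithelial ones do. In it Sparc alone of the 7 passed, with a log2 fold change of 5.15 over all Epcam-positive cells (SE 0.47, adjusted p = 0.023), where 1.2% of 13592 genes passed, 0.956% higher and 0.243% lower. Without run 3 of the epithelial cells its adjusted p was 0.052. Bgn (log2 fold change 7.47, adjusted p = 0.0898), Lum (7.43, 0.107), Vcan (3.86, 0.057) and Dcn (2.73, 0.0756) pointed upward without passing. With sums of at least 4 cells, a setting chosen after the cell numbers were seen, all 3 runs entered and 11.6% of 11085 genes passed, 5.56% higher and 6.01% lower. Then Vcan (4.34), Dcn (2.65), Bgn (6.88), Lum (8.02) and Sparc (5.01) were all higher, with adjusted p-values from 6.08e-06 to 0.000917, and their runs did not overlap, as for 32.5% of all genes. Apoe was lower by a log2 fold change of -1.82 (SE 0.54, adjusted p = 0.0419), a call that was lost without run 2 (0.0848), without run 3 (0.255) and in DESeq2 (0.0569). Sbspon (-1.73, adjusted p = 0.116) did not pass, and it was called lower when the run was a block in the fit (adjusted p = 0.0037). Of the 70 matrix genes tested in this setting 32 were higher in collagen-high cells and 4 lower, and of the small leucine-rich proteoglycans 6 of 7 were higher (median log2 fold change 6.19, against -0.56 over all genes).

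The direction for Apoe depended on which epithelial cells were compared. Against basal-gated cells alone, with at least 4 cells per sum, Apoe was lower in collagen-high cells by a log2 fold change of -3.01 (adjusted p = 0.000795), and against luminal-gated cells alone it was higher by 2.82 (adjusted p = 0.00334). Dcn remained higher in collagen-high cells against basal-gated cells, by a smaller log2 fold change of 1.46 (adjusted p = 0.0154).

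Sbspon had a pattern of its own within the luminal cells. In the AP it was at 549, 305 and 461 CPM in luminal-gated RFP+ cells, against 50.6, 11.5 and 24.7 CPM in luminal-gated RFP- cells. The runs did not overlap, and the log2 fold change was 3.86 (SE 0.42, adjusted p = 0.000349), where 22.6% of 8625 genes passed, 12.0% higher and 10.6% lower, and the runs of 33.3% did not overlap. With the run as a block 2930 genes passed in place of 1945. Dcn and Apoe did not pass (adjusted p = 0.459 and 0.697), and both were highest in the 48 AP RFP- cells of run 3, with 337 and 577 CPM. Without run 3 Apoe turned from -0.60 to 1.74 (adjusted p = 0.049). The other 4 genes were too low in luminal cells to be tested. Of the matrix lists, Ctgf (log2 fold change 4.44), Clu (4.24) and Cd44, the hyaluronan receptor (2.52), were the other named genes higher in the RFP+ cells.

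The same held for Sbspon when luminal cells were split by Krt4 and Psca, keratin and surface markers of the proximal ducts, at 5 UMIs per 10000. This split is not independent of the RFP one, since both share cells. It also pools the lobes, and in intact run 2 mice most luminal-gated UMIs came from VP cells. The part of the lobes in the differences of this split was not tested. Of the 544 Sbspon UMIs of intact luminal-gated cells in run 2, AP RFP+ cells held 454 and Krt4/Psca-high cells 452. Sbspon was at 557, 319 and 541 CPM in the 397 Krt4/Psca-high cells, where 90.3%, 81.9% and 90.6% had a UMI, and at 37.0, 5.58 and 18.2 CPM in the 1024 Krt4/Psca-low cells. Its log2 fold change was 3.83 (SE 0.54, adjusted p = 0.00153), with 28.5% of 10161 genes called, 14.4% higher and 14.1% lower, and 60.7% with runs that did not overlap. Its level in Krt4/Psca-high luminal cells, 472 ± 134 CPM (SD, n = 3), lay above that in basal-gated cells, 196 ± 41.7 CPM, a pair that was not tested. Dcn (49.0, 27.3 and 66.4 CPM in low, 12.8, 6.34 and 44.8 CPM in high cells) and Apoe (132, 64.2 and 161 against 44.3, 34.5 and 79.2 CPM) were called lower in the high cells, with log2 fold changes of -2.04 (adjusted p = 0.0392) and -2.00 (adjusted p = 0.00853). Their runs overlapped, and both calls were lost without run 1 (0.152 and 0.0613). The luminal gate spans the keratin bins of 0 to 1 and 1 to 3. In runs 1, 2 and 3 Dcn was at 33.1, 18.8 and 37.3 CPM in the first bin and 1181, 532 and 1163 CPM in the second. Apoe was at 37.8, 34.7 and 67.5 CPM and at 5115, 2104 and 3421 CPM. The second bin held 9, 14 and 37 cells. The part of these cells and of free RNA in the 2 calls was not tested. TMM scaling enters these log2 fold changes but not the CPM values, which differed less. Mean CPM in high against low cells was 21.3 against 47.6 for Dcn and 52.7 against 119 for Apoe. In VP luminal-gated cells Sbspon was at 6.34, 1.53 and 1.12 CPM.

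Among intact basal-gated cells the sorted populations differed in Apoe, Dcn and Vcan, which were picked out here after their values were seen and are given without a test. VP RFP+ basal-gated cells had 20428, 15679.7 and 19143 CPM (22, 64 and 33 cells in runs 1, 2 and 3, where the sample sheet of run 3 prints the same short barcode for its AP and VP samples and the separate barcode columns were used), while VP RFP- cells had 6853 and 6626 CPM in runs 2 and 3. AP RFP+ basal-gated cells had 9048, 8380.5 and 8074 CPM and AP RFP- cells 10947, 8255 and 6070.2 CPM. The 3 VP RFP+ values lay above those of every other population and run. Vcan was at 30.7, 106 and 45.6 CPM in VP RFP+ and 14.3, 19.4 and 9.7 CPM in AP RFP+ cells. Dcn was also highest in VP RFP+ cells, at 5334, 5351 and 7904 CPM, against 3406, 2653 and 3369 CPM in AP RFP+ cells. Sparc was highest in VP RFP+ cells within each run (590.1, 388 and 368 CPM), but its values overlapped between populations across runs.

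**Figure D3:**
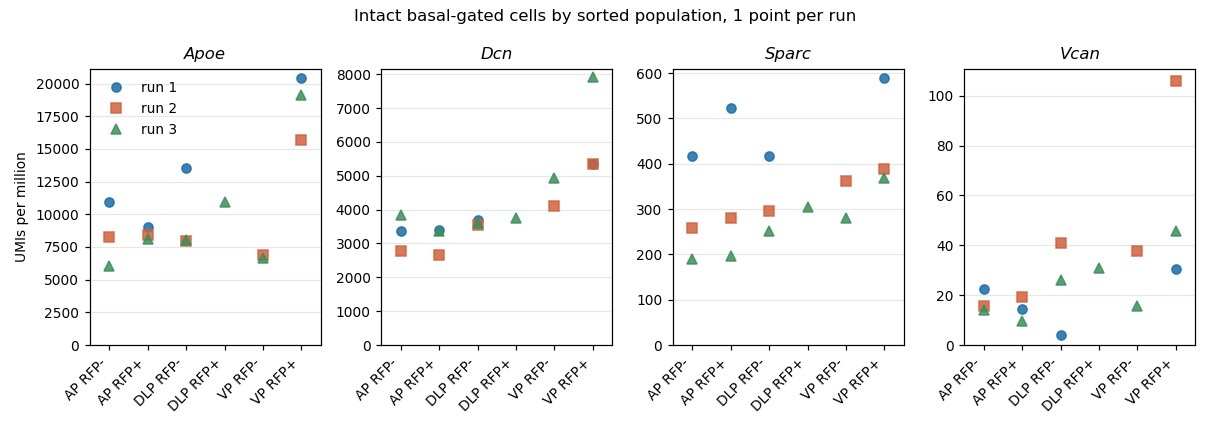
Level of Apoe, Dcn, Sparc and Vcan in CPM in intact basal-gated cells of each sorted population, with 1 point per run (DLP RFP+ was recovered in run 3 only, and VP RFP- in runs 2 and 3). VP RFP+ cells have the highest Apoe values, between 15679.7 and 20428 CPM.

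Castration was compared in run 2, with 1 pool per treatment and hence no test, and intervals cover counting error only. In basal-gated cells (219 castrated, 317 intact) Sparc and Vcan were the most reduced of the 7. Sparc was at 72.0 CPM after castration and 316 CPM in intact mice, a log2 ratio of -2.13 (95% interval -2.41 to -1.87), and the share of positive cells was 27.9% against 83.9%. Vcan was at 8.86 against 40.8 CPM, a ratio of -2.20 (-3.04 to -1.46) on 16 and 162 UMIs. Sbspon was at 84.2 against 172 CPM (-1.03, interval -1.30 to -0.78), and Bgn at 3.32 against 12.1 CPM on 6 and 48 UMIs (-1.86, interval -3.38 to -0.64). In cells free of Col1a1 and Col3a1 UMIs the Bgn ratio was -0.31, and with totals that leave out the 50 most abundant genes that of Sbspon was -0.97. Apoe (5129 against 9294 CPM, -0.86) and Dcn (2497 against 3587 CPM, -0.52) were reduced less. Lum had 0 UMIs against 4. So 4 of the 6 genes with at least 20 UMIs were lower past 2-fold and none higher, while 12.1% of 9752 genes were past 2-fold, 9.25% lower and 2.84% higher, and the median of all genes was -0.20. The summed fibroblast markers were at 27.7 CPM in castrated and 65.0 CPM in intact basal-gated cells, and their part in these ratios was not tested. VP cells gave a smaller share of the castrated than of the intact basal-gated UMIs, and the pooled Vcan ratio lay below that of each lobe. The part of the lobes in the pooled ratios was not tested. The 5 castrated basal-gated cells of run 1 had 4799 CPM of Dcn and 234 CPM of Sparc.

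Sparc and Vcan were lower past 2-fold in each lobe, and Dcn and Apoe in none with RFP+ and RFP- cells together, where 12.8% (AP), 9.74% (DLP) and 13.6% (VP) of all genes were lower past 2-fold. Sparc had log2 ratios of -2.34 in the AP (interval -2.74 to -1.96), -1.61 in the DLP (-2.22 to -1.03) and -1.67 in the VP (-2.20 to -1.17). Vcan was at -2.11 (-3.82 to -0.75), -1.71 (-3.73 to -0.11) and -1.54 (-2.88 to -0.44). Dcn differed less, at -0.16, -0.86 and -0.45, and Apoe was at -0.88, -0.60 and -0.55. Within AP RFP+ basal-gated cells, 125 castrated and 97 intact, Sparc was at -2.45 and Dcn at -0.16. Within VP RFP+ cells, 40 castrated and 64 intact, Apoe was at -1.32 (-1.39 to -1.25), Sparc at -2.26 and Vcan at -2.52, so Apoe was past 2-fold there. The paper found RFP in nearly all basal cells after castration, so the RFP+ gate can hold different cells in each treatment. In intact run 2 mice the VP RFP+ cells also had more Apoe than the VP RFP- cells. The part of this in the RFP+ ratios was not tested. Of the 51 matrix genes measured, 11 were lower past 2-fold, among them Col18a1, a basement membrane proteoglycan (88.1 against 273 CPM, -1.63), and 2 higher, Clu (466 against 69.1 CPM, 2.76) and Sparcl1, a relative of Sparc (1.07, on 22 and 23 UMIs).

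**Figure D4:**
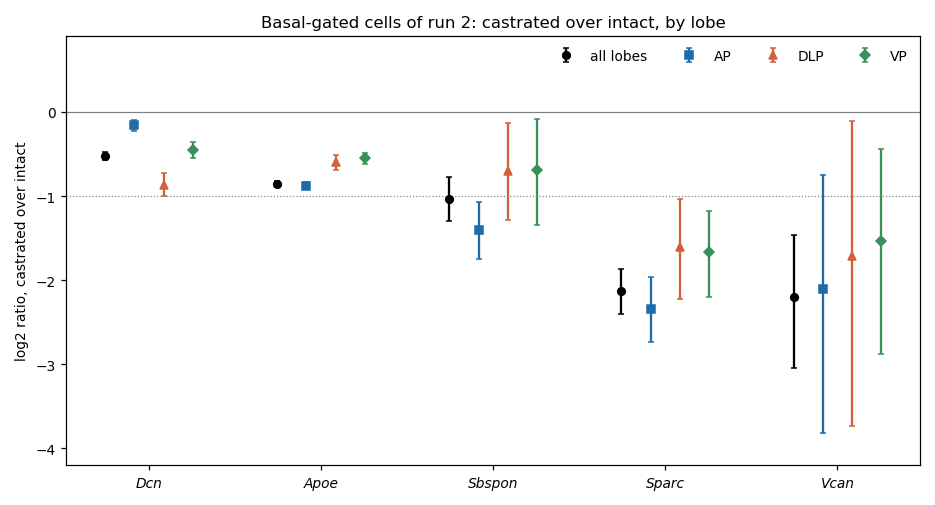
Log2 ratio of CPM, castrated over intact, in basal-gated cells of run 2 for Dcn, Apoe, Sbspon, Sparc and Vcan, over all lobes and per lobe, with 95% counting intervals (1 pool per treatment). The solid line marks no difference and the dotted line 2-fold lower, and Sparc lies below the dotted line in each lobe, from -2.34 to -1.61.

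In luminal-gated cells (533 castrated, 545 intact) Sbspon was at 6.34 CPM in castrated and 30.4 CPM in intact mice, a log2 ratio of -2.26 (-2.67 to -1.88), where 29.7% of 11836 genes were past 2-fold, 4.66% lower and 25.0% higher, and the median of all genes was 0.56. The ratio was larger in AP RFP+ luminal cells, at 10.8 against 305 CPM (-4.82, interval -5.36 to -4.32), whereas VP luminal cells had 3 and 18 UMIs. In the 23 castrated Krt4/Psca-high luminal cells Sbspon was at 40.9 CPM against 319 CPM in 94 intact ones (-2.96, interval -3.92 to -2.14). Krt4/Psca-high cells were thus 23 of 533 castrated and 94 of 545 intact luminal-gated cells. The paper found RFP in most luminal cells after castration, and lower Psca in the castrated proximal luminal cells. These gates and the luminal class can therefore hold different cells in each treatment, and the part of this in the Sbspon ratios was not tested. Dcn (31.5 against 25.6 CPM) and Apoe (87.9 against 61.8 CPM) had ratios of 0.30 and 0.51, and with totals that leave out the 50 most abundant genes these were -0.30 and -0.09. That change of totals also took the share of genes called higher from 84.3% to 44.4%. Sparc had 5 and 36 UMIs (-1.95), and its ratio was 0.03 when cells with immune and endothelial markers were kept. Thbs1, a matricellular inhibitor of angiogenesis, was at 409 against 5.92 CPM (6.11) and Cd44 at 93.6 against 7.49 CPM (3.64). In the AP, DLP and VP the ratios were 6.71, 4.23 and 4.92 for Thbs1 and 1.67, 3.62 and 2.44 for Cd44. VP cells gave a smaller share of the castrated than of the intact luminal-gated UMIs. The part of the lobes in the pooled luminal ratios was not tested.

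In the explants the same genes were followed from the urogenital sinus to budding prostate, again with 1 pool per day and no test. In Epcam-positive cells of days 0, 1, 3 and 6 Vcan was at 40.7, 56.8, 121 and 215 CPM, Dcn at 122, 86.1, 264 and 429.5 CPM, Apoe at 12.6, 29.6, 71.4 and 184 CPM and Sbspon at 22.2, 64.2, 115 and 120.0 CPM. All 4 were higher at day 6 than at day 0 by more than 2-fold, with log2 ratios of 2.40 (2.28 to 2.52), 1.82 (1.75 to 1.89), 3.87 (3.66 to 4.09) and 2.44 (2.28 to 2.60). Sparc was already at 292 CPM at day 0 and at 360.2 CPM at day 6 (0.30). Lum ran the other way, at 11.1, 3.98, 3.39 and 1.14 CPM (-3.29, interval -3.83 to -2.79). Bgn stayed between 0.79 and 1.90 CPM (1.27, interval 0.37 to 2.29). So 5 of the 7 genes were higher and 1 lower past 2-fold, against 7.07% and 12.2% of 13742 genes (19.3% in all), with a median of -0.21 over all genes.

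The make-up of the Epcam-positive class differed between the days, with 239 basal-gated of 660 cells at day 0 and 1547 of 2389 at day 6. Within basal-gated cells Vcan was at 49.5 CPM at day 0 and 190.1 CPM at day 6, Dcn at 213 and 584 CPM and Sbspon at 21.3 and 121 CPM. Mesonephric markers summed to 98.1 CPM at day 0 and 35.9 CPM at day 6, and urothelial markers to 283 and 231 CPM. Without cells with a Pax2 or Pax8 UMI the log2 ratios over all Epcam-positive cells were 2.22 for Vcan, 1.65 for Dcn, 4.05 for Apoe and 2.54 for Sbspon. The part of this make-up in the differences between days was not tested. At day 6 basal-gated cells had 584 CPM of Dcn and luminal-gated cells 90.9 CPM, but Vcan was at 190.1 and 186 CPM and Sbspon at 121 and 118 CPM. Sparc at day 0 was higher in luminal-gated cells, at 532 CPM, than in basal-gated cells, at 199.7 CPM, and at day 6 the order was 248 and 439 CPM. Basal-gated Apoe was at 12.1 CPM at day 0 and 219 CPM at day 6, still far below the adult basal level of 8890.3 to 10300.3 CPM, a value from other libraries that was not compared by a test. Of 81 matrix genes measured between days 0 and 6, 22 were higher past 2-fold and 14 lower, against 7.07% and 12.2% of all genes. Cd44 (1.05 to 32.1 CPM), the proteoglycans Cspg4 (0.33 to 9.47 CPM) and Spock1 (0.86 to 23.5 CPM) and Prelp (log2 ratio 4.25) had the largest ratios, and Spp1, or osteopontin, the lowest (13.0 to 0.28 CPM).

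The 10, 31, 11 and 8 collagen-high explant cells of days 0, 1, 3 and 6 had a steady Vcan level, at 313, 300.0, 288 and 299 CPM. The log2 ratio of Vcan to Epcam-positive cells went from 2.94 (2.34 to 3.49) at day 0 to 2.40, 1.25 and then 0.47 (-0.24 to 1.10) at day 6, so the day 6 interval includes 0. Dcn went from 3.88 to 3.87, 2.71 and 0.77 (0.34 to 1.17), with collagen-high levels of 1799.7, 1259, 1728 and 733 CPM. Bgn kept the 2 classes apart at every day, with ratios of 8.28, 7.93, 8.45 and 7.43, and so did Lum, with 3.18, 4.72, 5.09 and 7.72. Over all days the ratios were 7.83 for Bgn, 4.99 for Lum, 2.31 for Dcn, 2.23 for Sparc, 1.16 for Vcan, 0.02 for Apoe and -1.41 for Sbspon, where 47.6% of 14624 genes were past 2-fold, 22.3% higher and 25.2% lower. Smooth muscle markers in the collagen-high cells summed to 44.7, 332, 2904 and 3485 CPM at the 4 days, and their part in these ratios was not tested.

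**Figure D5:**
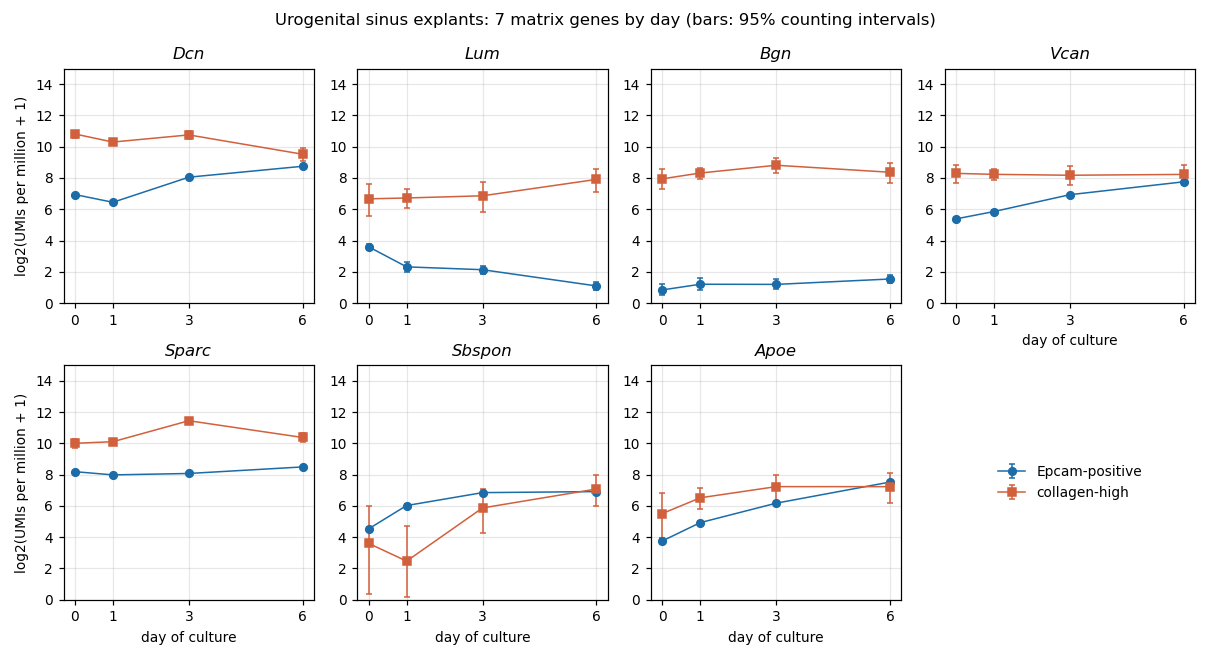
Level of the 7 genes on a log2(CPM + 1) scale in Epcam-positive and collagen-high explant cells by day of culture, with 95% counting intervals (1 pool per day). Vcan in Epcam-positive cells climbs from 40.7 to 215 CPM toward the level of collagen-high cells, while Lum and Bgn stay apart.

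Genes whose levels ran closely like each of the 7 were taken over 20 sums of adult and explant cells and 5624 genes, as a description with no p. Vcan was closest to Ptn, a secreted growth factor (Pearson r = 0.98), and to Gpc3, and Sparc to Col4a1 (0.98) and Hspg2, both basement membrane genes. Bgn was closest to Nid1 (0.98) and Tcf21, and Lum to Pdgfrl (0.99) and Col5a2. Dcn was closest to Aebp1 (0.96), Tpst1 and Cxcl14. Apoe was closest to Cp (0.93), Prelp and Oat, and Sbspon to Zfp467 (0.87) and Ptges. The sums share libraries and differ in depth.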

How the data were processed

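Single-cell RNA of sorted EPCAM+ mouse prostate cells was read by 10x 3′ v3 chemistry in 3 adult libraries and 1 explant library, with lipid barcodes (MULTI-seq) marking lobe, treatment or day. The authors deposited UMI counts per gene and cell, with no normalization. The submitters' processing notes name Cell Ranger 3.1.0 and Seurat 3.1.5, and the build was mm10. Cells were assigned to samples here from the deposited barcode counts, with the thresholds in the study's supplement. Cells had 1 barcode, over 750 and under 7500 genes with under 10% mitochondrial UMIs in adults, and over 1000 genes with under 7.5% in explants. The paper gives the upper limit for adult cells as 7500 UMIs, not genes, and that limit was run here as an alternative. Cells with several barcodes were removed and no doublet caller was run here, whereas the authors used DoubletFinder in runs 1 and 2. Cells with more than 2 immune or endothelial marker UMIs were left out of the Epcam-positive class. The members and gene lists were chosen with earlier results of these data known.

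Cells are not replicates. UMIs were summed per run and class and tested over the 3 intact runs with edgeR 4.0.16 in R 4.3.3 (quasi-likelihood test, TMM scaling, filterByExpr, Benjamini-Hochberg adjusted p under 0.05), and DESeq2 1.42.0 was an alternative. The scripts were tested on simulated data with 200 changed genes. Within the epithelium edgeR recovered 6% to 23% of the 2-fold and 63% to 85% of the 4-fold changes. For collagen-high cells, at 4 cells per sum, it recovered 0% and 5%. False calls were 0% to 8.93% of the hits of edgeR and 5% to 20.6% of those of DESeq2. A gene that did not pass can therefore still differ. The log2 fold changes of edgeR include the TMM scaling, whereas CPM values do not, so the 2 can differ in size. The runs are separate pools of mice, and p-values measure the spread between these pools. Per the methods, run 3 was sequenced on another instrument than runs 1 and 2, so this spread also takes in the library and instrument. Sums of the same run come from the same pooled mice, which pairs them by run. Deviations of same-run sums from the group means correlated at 0.30 to 0.62 in the comparisons within the epithelium and at 0.063 to 0.15 for collagen-high cells. Castrated against intact cells and explant days had 1 pool each, so log2 ratios of CPM carry exact 95% binomial intervals for counting error only, and a gene was counted as higher or lower past 2-fold with at least 20 UMIs over both sums. The planned minimum of 10 cells per sum left 1 collagen-high sum. Besides the 7 genes, genes of the matrix lists were named where they passed the test at a mean of at least 20 CPM and were among the 4 largest or 4 smallest fold changes, or, with no test, past 2-fold. One of the genes that the likeness rule names is not reported here. Figures were drawn with matplotlib 3.10.9.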

Additional observations from a re-analysis of the deposited data

Results flagged for a closer look

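Cells without a lipid barcode were in no comparison, and the same genes were present in them. Barcode-negative basal-gated cells of run 1 (195 cells) had 3942 CPM of Dcn and 13973 CPM of Apoe, and those of run 2 (324 cells) had 3225 CPM of Dcn and 9571 CPM of Apoe. Barcode-negative collagen-high cells of run 1 (31 cells) had 12338 CPM of Dcn, 1595 CPM of Bgn and 582 CPM of Lum. Those of run 2 (16 cells) had 12334 CPM of Dcn, 1052 CPM of Bgn and 473 CPM of Lum. Labelling of the intact DLP RFP+ sample failed in these runs, per the methods, so these cells may include that sample. They were not assigned to a lobe or treatment here.

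Dcn and Apoe had log2 ratios of opposite sign after castration in basal-gated and luminal-gated cells of run 2. The luminal minus basal difference was 0.82 for Dcn and 1.37 for Apoe, and it was not tested, since there was 1 pool per treatment. The mix of lobes in these pools also differed between treatments. By lobe, luminal Dcn was 1.55-fold higher in the AP, 1.38-fold lower in the DLP and 1.22-fold higher in the VP after castration. With totals without the 50 most abundant genes the luminal ratios were -0.30 and -0.09, the same sign as in basal-gated cells. In AP RFP+ luminal-gated cells they were -0.38 (95% interval -0.86 to 0.12) and -0.82 (-1.05 to -0.60), though the RFP+ gate can hold different cells in each treatment.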

How the results depend on the processing

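Collagen-high cells number 8, 10 and 4 per intact run, castration and explant day have 1 pool each, and T and NK cells were few and shallow, which limits what these depths can show. Of 349 values of the 7 genes under alternatives in the tested comparisons, 276 kept their direction and side of the threshold, 60 newly passed, 8 no longer passed and 5 reversed. Of 659 values in the comparisons without a test, 575 moved by less than the counting interval, 83 moved more and 1 reversed. For collagen-high against Epcam-positive cells, where 163 genes passed, the count was 951 with DESeq2, 572 with no low-count filter, 324 with library sizes without the 50 most abundant genes, 1933 with the collagen gate at 10, 318 in Epcam-positive cells without collagen UMIs, 5 without the immune and endothelial exclusion, and 84 to 529 without 1 replicate. With at least 4 cells per sum it was 1282, with DESeq2 2015, against basal-gated cells 1066, against luminal-gated cells 1763, and 601 to 1366 without 1 replicate (775 without run 2). At 10 cells per sum no fit was possible with the replicate block, without run 2, with the collagen gate at 40, with the limit of 7500 UMIs, with collagen-high cells without Epcam UMIs or with at least 20 cells. Without 1 replicate the counts were 2424 to 6331 for basal-gated against luminal-gated cells, 748 to 1492 for AP RFP+ against RFP- and 1473 to 2472 for Krt4/Psca-high against low cells. With the limit of 7500 UMIs these 3 counts were 1153, 119 and 295, and those of castrated against intact cells were 736 (basal) and 851 (luminal). The luminal castration count was 2187 with totals without the 50 most abundant genes. Values that reversed were Apoe in collagen-high against luminal-gated cells (2.82), Sbspon in basal-gated against luminal-gated cells under 7500 UMIs (-0.87), Dcn (-1.78 to 0.52) and Apoe (-1.58 to 1.74) in AP RFP+ against RFP- cells without 1 replicate, and Sparc in castrated luminal cells without the exclusion (0.028). The cause was not tested.

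With the run as a replicate block, the count was 1328 for collagen-high cells at 4 cells per sum and 2930 for AP RFP+ against RFP- cells. In the latter the Apoe value reversed to 0.33 (adjusted p = 0.708). At 4 cells per sum Sbspon passed under the block with an adjusted p of 0.0037, and the pairing changed no other call of the 7 genes among the fits at the same number of cells.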
